A study of Mus musculus with 2 samples.

Results

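Dorsal neural tube progenitors were identified in single-cell RNA-seq libraries of mouse inter-limb somites by the transcripts that each cell carried. A member held at least 3 UMIs summed over Sox2, Sox3 and Hes5, coming from at least 2 of these genes, and at least 1 UMI of Pax3 or Pax7. A UMI, or unique molecular identifier, is a tag that counts each captured RNA molecule a single time. Members also held no UMI of Nkx6-1 or Olig2 (ventral neural tube), Meox1 (somite) or Elavl3 (neurons). This rule found 560 of the 19446 cells kept. The levels of these 9 genes chose the cells, so they are given as a description and support no comparison.

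The embryos were wild type C57BL/6 mice, taken untreated on embryonic day 9.5 (E9.5) or 11.5 (E11.5). Somites lying between the limb buds of 3 embryos were pooled and dissociated at each stage, and 1 10x Genomics library was made per stage. Cells of a pool are not replicates, and stage cannot be told apart from litter, dissection or library preparation. No comparison was therefore tested, and every interval is an exact 95% interval that covers counting error only.

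The E9.5 library held 10121 barcodes, of which 9851 passed the filters of at least 200 and fewer than 6500 genes and under 15% mitochondrial UMIs. They carried 139643320 UMIs, with a median of 12462 per cell. The E11.5 library held 10167 barcodes, and the 9595 cells kept carried 129754245 UMIs with a median of 12479. The libraries had 30 barcodes in common, none of them in a progenitor. Progenitors numbered 488 at E9.5 (4.95% of cells kept, 4.53 to 5.40) and 72 at E11.5 (0.750%, 0.588 to 0.944), with median depths of 13558 and 14352 UMIs. How much neural tube came along with the somites is not given in the labels, so the share of progenitors cannot be told apart from the dissection.

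The neural tube is the rudiment of the brain and spinal cord, and its dividing progenitors line a central lumen. Sox2 and Sox3 encode transcription factors that maintain these progenitors, and Hes5 is a target of Notch signalling that holds back neuron formation. Bmp and Wnt ligands from the roof plate pattern the dorsal part, where progenitors transcribe Pax3 and Pax7, while Sonic hedgehog from the floor plate patterns the ventral part. The dorsal edge also releases the neural crest, a migratory population that forms peripheral neurons and Schwann cells and can retain Pax3 and Sox2. Spinal progenitors form neurons first and glia later.

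Of cells that met the neural requirement, 2222 at E9.5 and 244 at E11.5, the dorsal requirement left 811 and 132. For the E9.5 and E11.5 libraries, a UMI of Meox1 removed 237 and 12 of these, and a UMI of Elavl3 removed 111 and 52. Nkx6-1 removed 100 and 1 cells and Olig2 71 and 0, with some cells removed by several genes. At the edge of the rule, the 45 E9.5 members with exactly 3 neural UMIs had Pax6 at 106 UPM (79.9 to 138) and Rfx4 at 90.6. The 24 E9.5 cells just outside, with 2 neural UMIs from 2 genes, had Pax6 at 92.8 (62.6 to 132) and Rfx4 at 46.4. At E11.5 only 6 members and 2 cells lay at these edges. UPM, the level used throughout, is the number of UMIs of a gene summed over the cells of a class, per 1000000 UMIs of that class. Transcript length was not taken into account, so levels are compared between cells and not between genes.

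Genes outside the rule were used to check the label. Pax6, Rfx4 and Zic1, transcription factors of neural progenitors, were at 153, 98.8 and 157 UPM at E9.5. At E11.5 they were at 47.8, 63.1 and 151 UPM. The floor plate genes Shh and Foxa2 had 2 UMIs each among 7559079 at E9.5 and 0 among 1172008 at E11.5, too few to compare the stages. The rule leaves out cells with a UMI of its ventral genes, so these low counts can follow from that choice. By contrast, the neural crest and Schwann cell precursor gene Sox10 was at 4.10 UPM at E9.5 but at 111 UPM at E11.5. Summed over all 12 crest genes listed, the level was 55.7 UPM at E9.5 and 613 UPM at E11.5, against 235 and 327 UPM in all other cells kept.

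At E11.5 these crest transcripts came mostly from a separate group of cells, while at E9.5 the division was less sharp. Cells with at least 2 UMIs summed over 5 crest markers, Sox10, Foxd3, Tfap2a and Snai2 among them, called crest-marked here, numbered 21 of 488 at E9.5 (4.30%, 2.68 to 6.50) and 29 of 72 at E11.5 (40.3%, 28.9 to 52.5). At E9.5, 10 of the 21 held only 2 to 5 such UMIs, and 63 further members held 1. All 29 at E11.5 held at least 6, and they contributed 57.9% of the progenitor UMIs of that stage. A set of 6 neural tube genes (Rfx4, Msx3, Zic1, Irx3, Irx5 and Pax6) reached at least 2 UMIs in 16 of the 21 crest-marked cells at E9.5 but in 3 of the 29 at E11.5. The crest-marked cells of E11.5 thus met the rule without carrying most neural tube genes, and for them the data went against the label. A further 7 and 4 members held at least 10 UMIs of endothelial, blood, sarcomere, epithelial or somite markers.

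The members left, called crest-free progenitors, numbered 460 at E9.5 and 39 at E11.5. The same 6 genes reached 2 UMIs in 457 of the 460 and in 38 of the 39. In endothelial cells, which should lack them, this held for 26 of 256 cells at E9.5 and 6 of 69 at E11.5. It also held for 338 of 482 ventral progenitors at E9.5 (70.1%), and for 222 of 1314 and 104 of 233 dermomyotome progenitors (16.9% and 44.6%), so these genes do not mark the dorsal tube alone. Crest-free progenitors carried 6982118 UMIs at E9.5 (median 13176.5 per cell) and 392416 UMIs at E11.5 (median 8991), so E11.5 levels rest on fewer molecules. Sox10 had no UMI at E9.5 and 1 UMI at E11.5 in the crest-free cells. It is 1 of the 5 markers used to leave cells out, so its low count follows from that cut and does not check the class. Values below are for crest-free progenitors unless all progenitors are named. The thresholds that separate these groups were set after the values were seen.

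**Figure D1:**
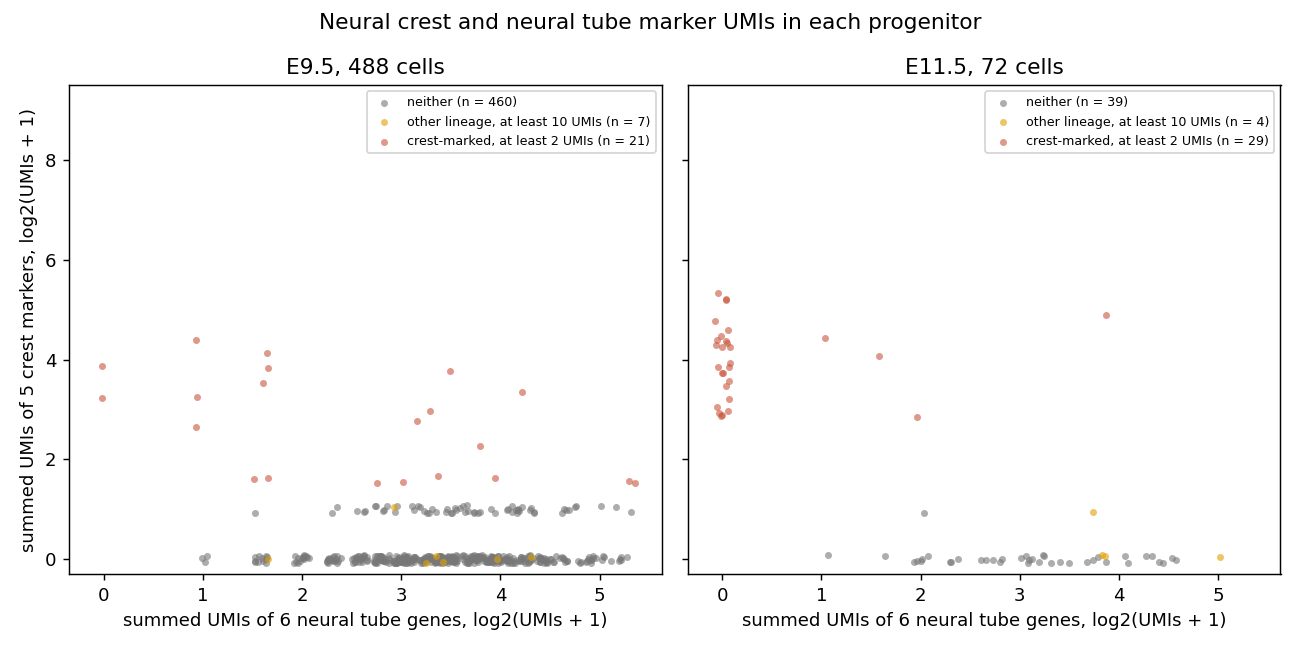
Each point is a progenitor at E9.5 (left) or E11.5 (right), with the log2 of its summed UMIs plus 1 of 6 neural tube genes (x axis) and of 5 crest markers (y axis); points are slightly jittered. At E11.5 the 29 crest-marked cells lie mostly at 0 neural tube UMIs, apart from the 39 crest-free cells.

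Genes of other lineages are given next. Members with many UMIs of their markers had been left out of the crest-free class, so low levels there follow in part from that choice. The 18 somite genes listed, with Twist1 the most abundant at E9.5, summed to 41.0 UPM at E9.5 and 17.8 at E11.5, against 933 and 1071 UPM in all other cells. Of these 18, 14 were at 0 at E11.5. The 12 blood genes summed to 21.1 and 110 UPM, led by the embryonic globin Hbb-y at both stages, against 4824 and 11586.5 UPM in other cells. In all progenitors blood genes summed to 502 and 17792 UPM, most of it at E11.5 in a single crest-marked cell. Endothelial genes summed to 59.0 and 12.7 UPM, of which Egfl7 gave 43.3 and 10.2. Surface ectoderm genes summed to 5.59 and 7.65 UPM.

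Pax3 and Pax7, transcription factors of the dorsal tube and of muscle progenitors, were detected unequally. At E9.5, 386 of 460 crest-free members carried Pax3 alone, 14 carried Pax7 alone and 60 carried both. At E11.5 the numbers were 24, 1 and 14 of 39. Both genes belong to the rule, and these counts describe the members without a comparison.

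Compared with all other cells of its own library, the leading genes of the progenitors were ranked. In all progenitors the 12 leading genes, ordered by the smaller of their ratios at E9.5 and E11.5, were Prdm13, Nppc, Msx3, Hes3, Fgf15, Scube2, Fabp7, Olig3, Ndp, Wnt1, Gm29508 and Sox1. Hes3 had no UMI in E11.5 progenitors and was ranked by its E9.5 ratio. The list of crest-free progenitors had Fut9 and Zic5 in place of Wnt1 and Sox1. Prdm13, a transcription factor of dorsal spinal progenitors and interneurons, was at 28.4 UPM at E9.5 in crest-free progenitors and at 1.66 in other cells. At E11.5 it was at 38.2 (21.4 to 63.1) and 0.529 UPM. Msx3, a homeobox gene whose transcripts mark the dorsal tube, was at 128 against 9.43 UPM at E9.5 and at 178 against 1.36 at E11.5. Since the members were chosen by co-expressed genes, these ratios describe them and do not test the label.

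At E9.5 the dorsal cells could be set beside 482 ventral progenitors, defined by the same neural requirement with a UMI of Nkx6-1 or Olig2 and none of Pax3, Pax7, Meox1 and Elavl3. Only 8 such cells were found at E11.5. Of 8075 genes with at least 100 UMIs, 76 were at least 2-fold higher in crest-free dorsal cells and 89 in ventral cells. Zic1 was at 160 UPM in dorsal and 0.964 UPM in ventral cells, and Msx3 at 128 and 0.964. The class II helix-loop-helix gene Olig3 and the roof plate ligand Wnt1 were at 51.0 and 16.3 UPM in dorsal cells, and at 1.12 and 0.321 UPM in ventral cells.

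On the ventral side, Foxa2 was at 46.3 UPM and Shh at 35.3 UPM, both at 0.286 UPM in dorsal cells. Ptch1, the hedgehog receptor and a direct target of the pathway, was at 198 UPM in ventral and 48.8 in dorsal cells. Its partner target Gli1 was at 16.7 and 8.02 UPM. Neurog2 (105 against 28.4 UPM), Btg2 (41.8 against 14.3) and Elavl4 (63.8 against 7.16), genes of neuron formation, were higher in the ventral cells, but Tubb3 (13.5 against 16.9) and Stmn2 (8.35 against 10.0) were not. Globin genes were also higher there, with Hbb-y at 669 UPM, but ventral cells were not filtered for blood markers.

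Between the stages, 7214 genes had at least 100 UMIs in all progenitors. Of these, 407 were at least 2-fold higher at E11.5 (5.64%) and 385 at least 2-fold lower (5.34%), with a median log2 ratio of -0.03. In crest-free progenitors, 5753 genes had a mean level of at least 20 UPM. Of these, 518 were at least 2-fold higher (9.00%) and 334 lower (5.81%), with a median of 0.07. Dermomyotome progenitors (Pax3 and Meox1 cells without neural or late muscle genes, 1314 at E9.5 and 233 at E11.5) showed 6.75% higher and 3.18% lower under the same filter. All other cells kept showed 7.47% and 2.62%. With the minimum of 100 UMIs in place of the mean level, crest-free progenitors had 423 genes higher and 582 lower, so the balance turned with the filter. A gene can pass the filter through a single stage, so counts and medians of the lists below are descriptions, and counts are read only beside these percentages.

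**Figure D2:**
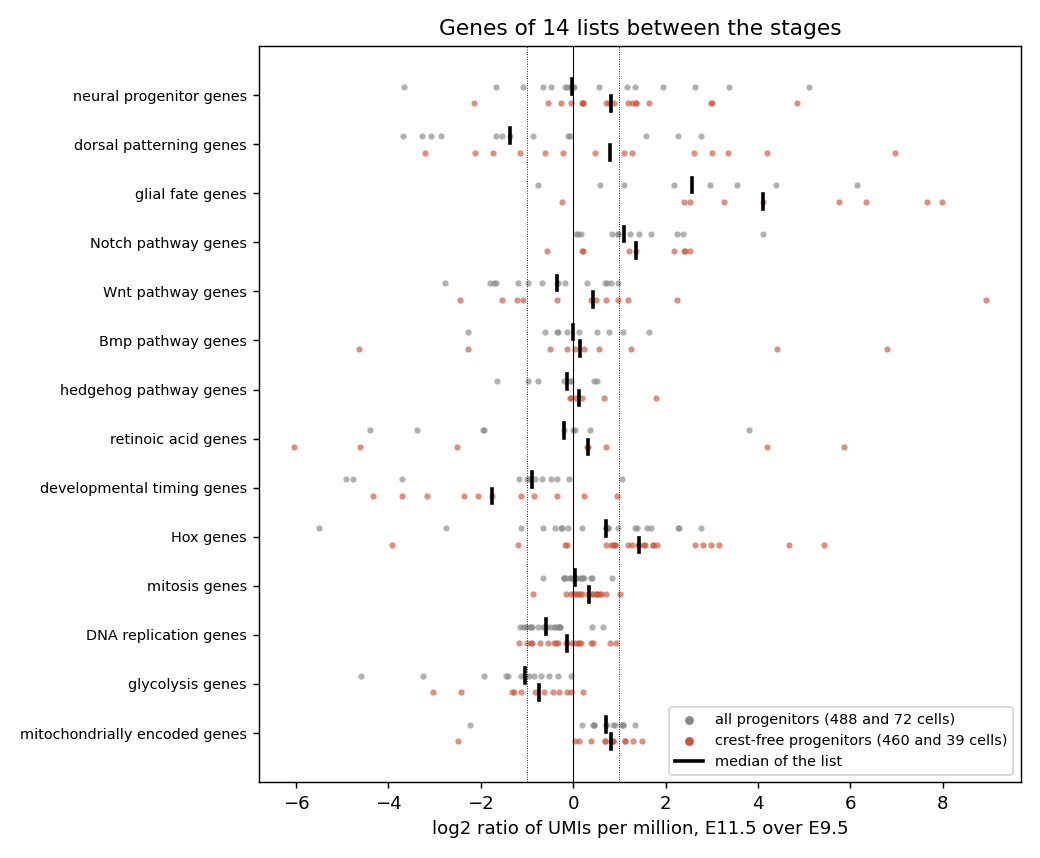
Each point is a gene of 1 of 14 lists, placed by its log2 ratio of UPM, E11.5 over E9.5 (x axis), in all progenitors (grey) or crest-free progenitors (red). Black bars are medians, dotted lines mark 2-fold and genes at 0 at a stage are drawn at the bound given by 3 counts. In crest-free cells the median is 4.11 for glial fate genes, where 8 of the 9 that passed were under 20 UPM at E9.5, and -1.75 for developmental timing genes.

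Among genes of neural progenitors, several were higher at E11.5. All 18 listed genes passed the filter, 8 of them at least 2-fold higher, 1 lower and 9 within 2-fold, with a median log2 ratio of 0.83. In all progenitors 6 were higher and 3 lower, with a median of -0.02. Fabp7, a fatty acid binding protein of radial glia (chr10:57784881-57788450 on GRCm38), was at 98.8 UPM (91.6 to 107) at E9.5 and 2826 UPM (2662 to 2997) at E11.5, a log2 ratio of 4.84 (4.70 to 4.98). Vimentin (Vim), an intermediate filament protein, went from 380 UPM to 3040 UPM and the filament gene Nes from 132 to 413 UPM. The endothelin receptor gene Ednrb was at 46.3 and 367 UPM. These differences were in the same direction in all progenitors, at log2 ratios of 5.11 for Fabp7, 2.63 for Vim, 1.16 for Nes and 3.38 for Ednrb. Fabp7 was not particular to crest-free cells, since all progenitors had it at 3355 UPM at E11.5, above the crest-free level. In all other cells kept Fabp7 was at 11.6 UPM at E9.5 and 90.2 UPM at E11.5.

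Not all progenitor genes followed. Sox1, a relative of Sox2, was at 56.4 UPM at E9.5 and 12.7 UPM (4.14 to 29.7) at E11.5, a log2 ratio of -2.15 (-3.78 to -0.91). Pax6 was at 160 and 110 UPM, a log2 ratio of -0.54 (-1.02 to -0.10). Rfx4 was at 101 and 173 UPM and N-cadherin (Cdh2) at 179 and 173. In all progenitors the log2 ratios of Pax6 and Rfx4 were -1.68 and -0.65, and neither gene had a UMI in the crest-marked cells of E11.5.

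Transcription factors that divide the dorsal tube into domains differed in both directions. In the spinal cord, Olig3 marks the most dorsal domains, from which commissural and other relay interneurons arise, and Gsx1 and Gsx2 mark domains just below. Of the 20 genes listed, 14 passed the filter, 7 higher and 4 lower, with a median of 0.79. In all progenitors 13 passed, 3 higher and 7 lower, and the median was -1.36. These medians differ in cells and in filter: at the minimum of 100 UMIs the median was -0.50 without crest-marked cells and -0.42 without other-lineage cells as well, and in all progenitors with a mean of 20 UPM it was -0.86.

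Msx1, a Bmp target of the roof and dorsal tube, was at 141 UPM (133 to 150) at E9.5 and 15.3 UPM (5.61 to 33.3) at E11.5, a log2 ratio of -3.21. Olig3 was at 51.0 and 15.3 UPM, with all 6 of its E11.5 UMIs in 2 cells. Irx3, a homeobox gene of the intermediate tube, was at 123 and 28.0 UPM. These 3 genes were also lower in all progenitors, at log2 ratios of -3.68, -3.27 and -2.85.

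Gsx1 (chr5:147188696-147190947) had no UMI in the 460 E9.5 cells and 21 UMIs in 10 of the 39 E11.5 cells, at least 124.5-fold higher when the E9.5 count is set to 3 counts over the group. Gsx2 was at 3.72 and 38.2 UPM, and Ptf1a, a factor of inhibitory interneuron progenitors, had 2 UMIs at E9.5 but 11 at E11.5. Zic1 was at 160 and 344 UPM and Zic4 at 16.3 and 99.4 UPM. In all progenitors Gsx2 had a log2 ratio of 1.99, Zic4 of 1.57 and Zic1 of -0.06.

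Since depth can set the share of cells with a UMI, each cell was also thinned at random to 5000 UMIs, which left out 4 shallower crest-free cells at E9.5 and 3 at E11.5. Olig3 was then found in 16.0% of 456 cells at E9.5 (12.8 to 19.7) and in 5.56% of 36 cells at E11.5 (0.680 to 18.7). Without thinning the shares were 25.2% and 5.13%. In endothelial cells, with median depths of 14553.5 and 18787 UMIs, Olig3 was found in 0.391% and 0% of cells. Thinned shares of Gsx2 were 1.97% and 13.9%, those of Msx1 were 36.0% and 5.56%, and those of Irx3 were 43.9% and 11.1%. At E11.5 the intervals of Olig3, Gsx2 (4.67 to 29.5), Msx1 (0.680 to 18.7) and Irx3 (3.11 to 26.1) all overlapped those of thinned endothelial cells, which had 0% (0 to 5.44) for Olig3 and Gsx2, 3.03% (0.369 to 10.5) for Msx1 and 1.52% (0.0384 to 8.16) for Irx3.

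**Figure D3:**
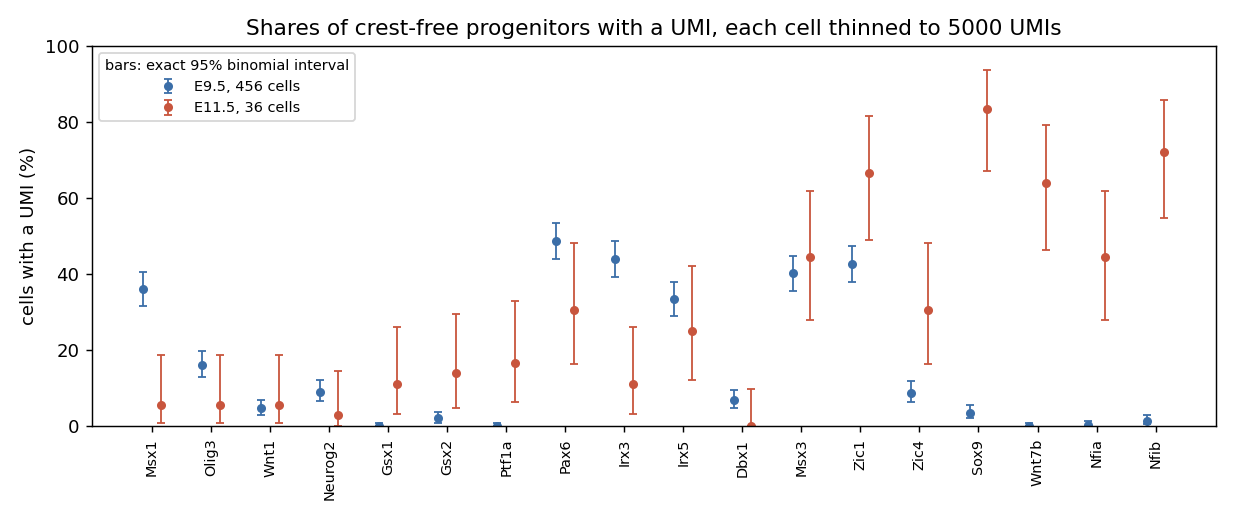
Points are the percentage of crest-free progenitors with at least 1 UMI of each gene (y axis) after each cell was thinned to 5000 UMIs, at E9.5 (blue, 456 cells) and E11.5 (red, 36 cells), and bars are exact 95% binomial intervals. Sox9, Wnt7b and Nfib go from at most 3.51% at E9.5 to at least 63.9% at E11.5, while Msx1 and Irx3 go the other way.

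Within a stage, the members divided by domain gene. At E9.5, 113 of 460 crest-free cells had a UMI of Olig3 and none of Gsx1 or Gsx2 (24.6%, 20.7 to 28.8), 16 had Gsx2 without Olig3 (3.48%), 3 had both and 328 had none. At E11.5, 18 of 39 carried Gsx1 or Gsx2 alone (46.2%, 30.1 to 62.8), 2 Olig3 alone and 19 none. Classes cut at 1 UMI depend on detection and are not cell types.

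The Olig3 cells of E9.5 carried more of other dorsal edge genes than the 328 cells with no domain gene. Msx1 was at 295 UPM (270 to 321) in Olig3 cells and 90.4 (82.2 to 99.3) in the others. Wnt1 was at 51.1 and 4.92 UPM and the Wnt agonist Rspo3 at 44.9 and 1.85 UPM. Neurog1, a proneural factor, was at 22.7 and 2.67 UPM, and Id3, a Bmp target, at 1297 and 545 UPM. Pax6 went the other way, at 60.2 UPM (49.3 to 72.8) in Olig3 cells and 195 (183 to 208) in the others. Dbx1, a homeobox gene of the intermediate tube, had no UMI in Olig3 cells and 169 UMIs in the 328 others. In the 16 Gsx2 cells of E9.5, Msx1 was at 52.2 UPM and Wnt1 at 0 UMIs, and Irx3 was at 145 UPM.

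At E11.5 the 18 Gsx cells had Msx3 at 224 UPM (163 to 301) against 105 (62.1 to 166) in the 19 without a domain gene. Sox9 lay lower in the Gsx cells, at 290 UPM (220 to 376) against 507 (406 to 625). Cells with a Pax7 UMI had less Msx3, 81.8 UPM (44.7 to 137) in 15 cells against 253 (191 to 329) in 24 cells without one, with median depths of 10556 and 7127.5 UMIs. The same split at E9.5, in 74 and 386 cells, gave 120.2 UPM (102 to 141) and 130.1 UPM (121 to 139.8). Pax7 is a gene of the rule, and these values describe the members.

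Of 11 roof plate genes listed, 3 passed the filter in all progenitors, all 3 at least 2-fold lower at E11.5, with a median of -2.94. None passed in crest-free progenitors, where the list summed to 60.2 UPM at E9.5 and 12.7 UPM at E11.5. Wnt1 was at 16.3 UPM at E9.5 (114 UMIs) and at 7.65 UPM at E11.5, where it had only 3 UMIs. Lmx1a, the factor that specifies the roof plate, had 19 and 0 UMIs. The classes hold 6982118 and 392416 UMIs, so these raw counts are not compared between the stages. The 9 genes listed for the ventral tube were all at 0 at E11.5. At E9.5 they summed to 43.4 UPM, of which Dbx1 gave 24.2 and Sp8 18.2. Dbx1 was higher in dorsal than in ventral cells (2.41 UPM), so this sum is not a measure of ventral genes. Of 18 spinal neuron genes only Tubb3, a neuronal tubulin, passed the filter, at 16.9 and 114.7 UPM, while Dcx had no UMI at either stage. The rule had left out cells with a UMI of its ventral genes or of Elavl3. Low levels of the ventral and neuron genes listed here can therefore follow from that choice. Among cells meeting the neural and dorsal requirements, Elavl3 removed 111 of 811 at E9.5 and 52 of 132 at E11.5. This cut thus differed between the stages.

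Some genes of the Notch pathway were higher at E11.5 and others within 2-fold. Notch receptors on progenitors are engaged by Delta ligands on nascent neurons, and the cleaved receptor acts with Rbpj to switch on genes such as Hes5, Hes1 and Nrarp. Of 17 listed genes 9 passed the filter, 6 of them at least 2-fold higher and none lower, with a median log2 ratio of 1.36. All progenitors gave 12 genes, 6 higher and none lower, and a median of 1.10. The receptor Notch1 was at 44.5 UPM (39.7 to 49.8) at E9.5 and 201 UPM (159 to 251) at E11.5, and Notch3 at 20.9 and 53.5 UPM.

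Among the targets, Nrarp, a feedback inhibitor of Notch signalling, was at 33.2 UPM (29.1 to 37.8) and 191 UPM (150 to 240), a log2 ratio of 2.52 (2.13 to 2.91). The target Hes1 was at 67.5 and 155 UPM. Hes6, a listed gene that opposes Hes1 and is not counted here as a target, was at 29.4 and 155 UPM. The ligand Dll1 was at 16.2 and 86.6 UPM, but in 8 cells at E11.5, of which 1 gave 41.2% of the UMIs. Rbpj itself was at 60.2 and 68.8 UPM. In dermomyotome progenitors 3 of 8 Notch genes that passed were higher and none lower, with a median of 0.80. Notch1 and Nrarp were not higher there, with log2 ratios of -0.87 and -0.09, nor in all other cells, at -0.62 and -1.09. Jag1 was at 17.8 UPM and 7.65 UPM in crest-free cells (log2 ratio -1.22, -3.51 to 0.36) but had a log2 ratio of 1.43 in all progenitors.

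The 250 bases before the start of Hes5 and of Nrarp are shown because both genes are direct Notch targets, Hes5 as a gene of the rule and Nrarp as the target described above. Capitals mark the Rbpj core motif GTGGGAA, read on both strands (TTCCCAC on the other), and lie 226 and 83 bases before the Hes5 start. The sequences are RefSeq promoters on GRCm38.p6, Hes5 at chr4:154960673-154960922 and Nrarp at chr2:25180508-25180757, both on the plus strand. The motif was absent from the Nrarp window. It was present in 5.42% of 32851 promoter windows of this length, and in 2 of the 14 genes among Hes5 and the Notch list with a sequence, Hes5 and Lfng.
Hes5: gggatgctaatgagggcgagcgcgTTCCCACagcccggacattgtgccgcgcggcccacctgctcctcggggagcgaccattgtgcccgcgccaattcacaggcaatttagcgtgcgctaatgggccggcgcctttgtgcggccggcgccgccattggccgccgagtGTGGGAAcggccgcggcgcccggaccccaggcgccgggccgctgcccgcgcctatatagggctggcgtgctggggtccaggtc
Nrarp: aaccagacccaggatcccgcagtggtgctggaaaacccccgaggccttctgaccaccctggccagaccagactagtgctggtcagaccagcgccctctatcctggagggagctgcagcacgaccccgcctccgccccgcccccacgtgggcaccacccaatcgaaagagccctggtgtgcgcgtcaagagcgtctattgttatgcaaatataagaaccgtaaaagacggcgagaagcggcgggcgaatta

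Wnt pathway genes differed in both directions in crest-free progenitors. Wnt ligands act through Frizzled receptors and the transcription factors Lef1 and Tcf7, and Axin2 is a general target. Of 21 listed genes 12 passed, with 3 higher, 4 lower and a median of 0.43. In all progenitors 15 passed, with none higher, 5 lower and a median of -0.35. With the minimum of 100 UMIs used there, the crest-free median was -0.71. The ligand gene Wnt7b (chr15:85535437-85582473) had no UMI in 460 cells at E9.5 and 82 UMIs in 28 of 39 cells at E11.5, at least 486-fold higher. Its share of E11.5 cells was 71.8%, against 1.45% of endothelial cells, and 63.9% (46.2 to 79.2) after thinning. The 0 of 460 cells at E9.5 allow a share of cells with a UMI of up to 0.652%, taken as 3 counts of the total. Wnt4 was at 57.9 UPM (52.4 to 63.8) and 273 UPM (224 to 330).

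Lef1 was at 42.1 UPM at E9.5 and had no UMI at E11.5, at least 5.51-fold lower. Axin2 was at 54.1 and 25.5 UPM. The secreted Wnt antagonists Sfrp1 and Sfrp2 were at 104 and 160 UPM at E9.5 and at 35.7 and 68.8 UPM at E11.5. Lef1 had a log2 ratio of -0.98 in all progenitors, and 26 UMIs at E11.5 there.

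Bmp pathway genes showed 3 higher and 2 lower of 10 that passed the filter, among 18 listed, with a median of 0.14. All progenitors gave 2 higher and 1 lower of 10, and a median of -0.01. The Id genes encode inhibitors of helix-loop-helix factors and respond to Bmp. Id3 was at 736 UPM (716 to 757) and 153 UPM (117 to 197), whereas Id4 had 8 UMIs at E9.5 but 50 at E11.5 (1.15 and 127 UPM). Id1 was at 132 and 120 UPM and Id2 at 188 and 222. The receptor Bmpr1b was at 2.86 and 61.2 UPM. Follistatin (Fst), a secreted antagonist, was at 63.0 UPM at E9.5 and had 1 UMI at E11.5, a log2 ratio of -4.63 (-9.94 to -2.14). Crest-marked cells had Id3 at 767 and 690 UPM, and its log2 ratio in all progenitors was -0.62.

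Of 11 hedgehog pathway genes 6 passed, with 1 higher, none lower and a median of 0.14. In all progenitors none of 8 was higher and 1 lower, with a median of -0.14. Boc, a co-receptor, was at 26.4 and 91.7 UPM. Ptch1 was at 48.8 UPM (43.8 to 54.3) and 56.1 UPM (35.1 to 84.9), and the repressor Gli3 at 92.1 and 96.8 UPM.

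Retinoic acid, made in the somites by Aldh1a2, acts on the neural tube through nuclear receptors and is bound in the cytoplasm by Crabp1 and Crabp2. Of 16 listed genes 8 passed, 2 higher and 3 lower, with a median of 0.31. In all progenitors 9 passed, 1 higher and 4 lower, with a median of -0.20, and with the minimum of 100 UMIs the crest-free median was -0.48. Crabp1 (chr9:54764748-54773110) was at 1174 UPM (1148 to 1199) at E9.5 and 17.8 UPM (7.17 to 36.8) at E11.5, a log2 ratio of -6.04 (-7.35 to -5.00). It was found in 82.7% of thinned cells at E9.5 and 5.56% at E11.5, where the endothelial share was 7.58%. In dermomyotome progenitors Crabp1 had a log2 ratio of -0.46 and in all other cells -0.49. Crabp2 was at 2047 and 357 UPM. The reductase gene Dhrs3 went the other way, from 1.15 to 66.3 UPM. Aldh1a2 was at 62.5 UPM at E9.5 and had 1 UMI at E11.5.

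Several genes of developmental timing were lower at E11.5. Lin28a, Lin28b and Trim71 encode RNA binding proteins of early embryonic cells that are opposed by let-7 microRNAs, and Hmga2 and Igf2bp1 are let-7 targets. Of 13 listed genes 11 passed, 7 lower and none higher, with a median of -1.75. All progenitors gave 12 genes, 5 lower and 1 higher, with a median of -0.89. Lin28a (chr4:134003330-134018841) had 478 UMIs in 255 cells at E9.5 and none at E11.5, at least 8.96-fold lower. Trim71 was at 102 UPM (94.9 to 110) and had 2 UMIs at E11.5, a log2 ratio of -4.33 (-7.38 to -2.47). Lin28b was at 66.2 UPM, with 2 UMIs at E11.5.

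Trim71 and Lin28b were lower in other cells too. Trim71 had log2 ratios of -4.02 in dermomyotome progenitors and -4.24 in all other cells, and Lin28b of -3.22 and -3.29. Hmga2 differed, at 354 UPM (340 to 368) and 84.1 UPM (57.9 to 118) in crest-free progenitors, a log2 ratio of -2.07 (-2.61 to -1.58), against 0.13 in dermomyotome progenitors and 0.42 in all other cells. In all progenitors Hmga2 had a log2 ratio of -0.47. Igf2bp2 was at 162 and 48.4 UPM, against log2 ratios of -0.46 and -0.34 in those other cells.

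Sox9, Nfia and Nfib take part in turning spinal progenitors from neuron to glia formation, and several others in the list mark radial glia. Of 14 listed genes 9 passed, 8 higher and none lower, with a median of 4.11. Since those 8 were under 20 UPM at E9.5 and passed through their E11.5 level, the count and median give no direction for the list. The other gene that passed, Metrn, was at 174 and 148 UPM. All progenitors gave 8 genes, 6 higher and none lower, and a median of 2.57. Sox9 (chr11:112782224-112787760) was at 7.30 UPM (5.44 to 9.60) at E9.5 and 395 UPM (335 to 462) at E11.5, a log2 ratio of 5.76 (5.29 to 6.24). It was found in 3.51% of thinned cells at E9.5 and 83.3% at E11.5, against 2.43% and 4.55% of endothelial cells. In crest-marked cells Sox9 went the other way, from 250 to 25.1 UPM.

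Nfia had 4 UMIs at E9.5 but 45 at E11.5 (0.573 and 114.7 UPM), and Nfib was at 2.72 and 219 UPM. Both were also higher in dermomyotome progenitors, by log2 ratios of 4.77 and 7.35, and in all other cells, by 5.72 for each. Thinned endothelial cells carried Nfib in 25.9% at E9.5 and 47.0% at E11.5. The homeodomain gene Hopx (chr5:77086988-77115121) was at 0.573 and 145 UPM, a log2 ratio of 7.99 (6.55 to 9.91), where dermomyotome progenitors had -3.88 and all other cells -1.68. Fgfr3, a receptor of glial precursors, was at 14.6 and 84.1 UPM, and Zbtb20 at 4.58 and 79.0. Metrn, a secreted factor of glial cells, was at 174 and 148 UPM. Tnc and Aldh1l1, genes of later astroglia, had no UMI at either stage.

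**Figure D4:**
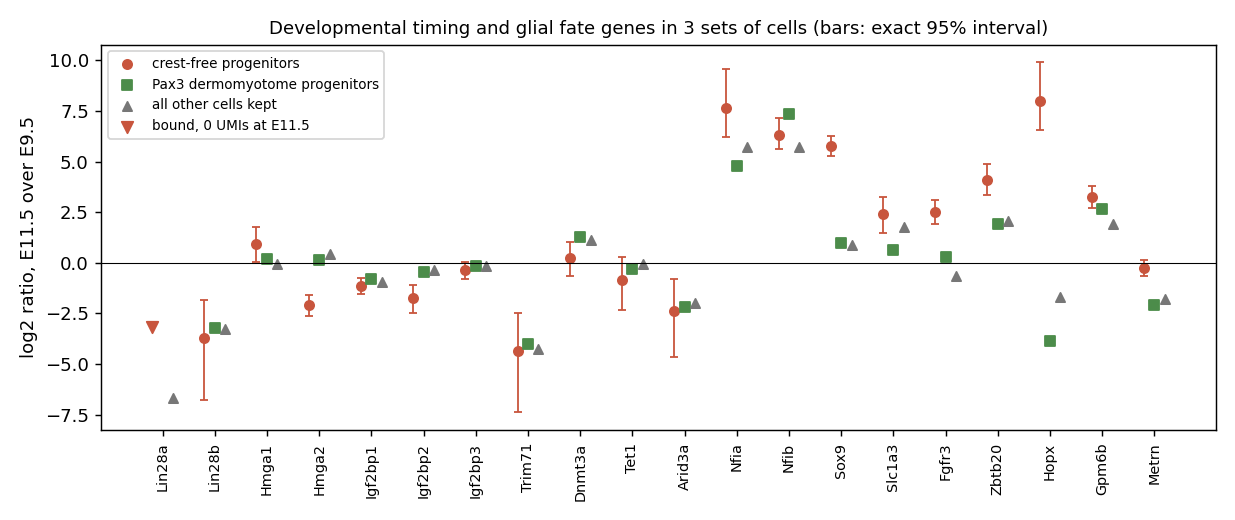
Log2 ratios E11.5 over E9.5 (y axis) of 20 developmental timing and glial fate genes in crest-free progenitors (red circles, bars are exact 95% intervals), dermomyotome progenitors (green squares) and all other cells (grey triangles). Lin28a is drawn at its bound. Sox9 is at 5.76 in the progenitors against 0.98 and 0.88 in the other classes, and Trim71 is low in all 3, at -4.33, -4.02 and -4.24.

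Hox genes give axial position, with higher numbered genes used further to the tail. Of 39 listed genes 24 passed, 15 higher and 2 lower, with a median of 1.42. All progenitors gave 23 genes, 7 higher and 3 lower, and a median of 0.70. Hoxa9 was at 18.8 UPM (15.7 to 22.3) and 148 UPM (112 to 191), Hoxc9 at 24.8 and 222 UPM, and Hoxb9 at 183 and 324 UPM. The higher genes were not only those of high number. Hoxb3 was at 64.6 and 148 UPM, and Hoxb8 at 56.6 and 153 UPM. Hoxa10 had 7 UMIs at E9.5 but 17 at E11.5 (1.00 and 43.3 UPM), and Hoxc10 was at 3.29 and 84.1 UPM, in 10 of 39 cells. Hoxb1, a gene of the hindbrain and early tail bud, was at 38.5 UPM with 1 UMI at E11.5.

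Part of this pattern was present in other cells. In dermomyotome progenitors Hoxa10 and Hoxc10 had log2 ratios of 8.56 and 7.27, and Hoxc9 of 2.55. Hoxb9 and Hoxb6 differed in sign, Hoxb9 being at 0.82 (0.55 to 1.08) in the crest-free progenitors and -3.11 in dermomyotome progenitors, and Hoxb6 at 1.82 and -1.54. In all progenitors Hoxb9 had a log2 ratio of -0.11. The axial level of the dissected tissue was not measured apart from these genes, and its part in the comparison was not tested.

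**Figure D5:**
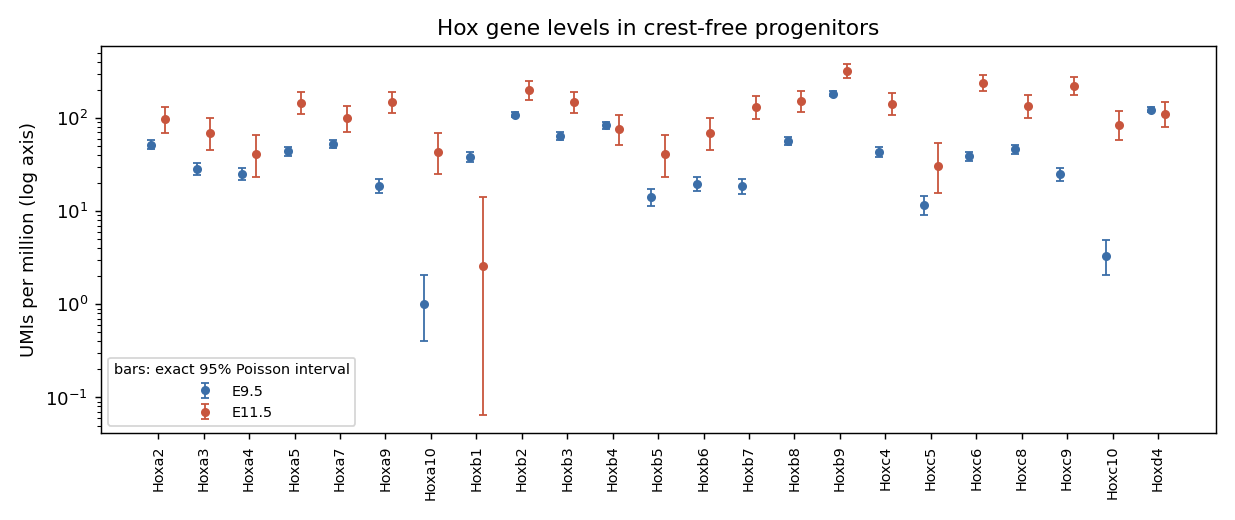
Levels of 23 Hox genes in crest-free progenitors at E9.5 (blue) and E11.5 (red), in UPM on a log axis (y axis), with exact 95% Poisson intervals as bars. Hoxa10 and Hoxc10 are at 1.00 and 3.29 UPM at E9.5 and 43.3 and 84.1 UPM at E11.5, and Hoxb1 is the gene furthest below its E9.5 level.

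Genes of the early caudal neural plate summed to 228 UPM at E9.5 and 94.3 UPM at E11.5. Fgf15, also a leading gene of the progenitors, gave 56.7 and 81.6 UPM of these sums, so the E11.5 sum is mostly Fgf15. Of 12 listed genes 3 passed the filter, 2 of them lower and none higher. At E11.5, where the class holds fewer UMIs, 10 of the 12 had no UMI, against 1 at E9.5. Nr6a1, a nuclear receptor that sets trunk Hox expression, had 564 UMIs at E9.5 but 0 at E11.5, at least 10.6-fold lower. Sall4, a factor of pluripotent and early embryonic cells, had 470 and 0, at least 8.81-fold lower. Both were also lower in all other cells, at log2 ratios of -4.99 and -4.55. Fgf15 was at 56.7 and 81.6 UPM in crest-free cells (log2 ratio 0.52, -0.04 to 1.04).

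Of 20 DNA replication genes 2 were at least 2-fold lower in crest-free progenitors, Mcm10 among them, and none higher, with a median of -0.15. In all progenitors 4 were lower and none higher, with a median of -0.59. Of 18 mitosis genes 1 was higher, Ccnb2, and none lower, with a median of 0.35, while in all progenitors none was past 2-fold and the median was 0.03. Mki67 was at 203 UPM (193 to 214) and 288 UPM (237 to 346), and Top2a at 506 and 665 UPM. Replication genes summed to 3673 and 3642 UPM in crest-free progenitors, to 3646 and 2636 UPM in all progenitors and to 2908 and 2071 UPM in all other cells.

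The D cyclins, which carry cells into the cycle, went opposite ways. Ccnd2 was at 1163 UPM (1138 to 1188) at E9.5 and 191 UPM (150 to 240) at E11.5, and Ccnd1 at 357 UPM (343 to 371) and 961 UPM (866 to 1063). In all progenitors Ccnd1 had a log2 ratio of 0.25 and Ccnd2 of -1.51. In dermomyotome progenitors both had the opposite sign, at -0.81 for Ccnd1 and 0.62 for Ccnd2. Of the 10 D cyclin and cell cycle exit genes listed, 8 passed the filter, with 5 higher, Ccnd1 among them, 1 lower and 2 within 2-fold. The inhibitor Cdkn1b was at 13.3 and 63.7 UPM, and Btg2 at 14.3 and 176 UPM, which marks progenitors about to form neurons. Gadd45g was at 14.6 and 234 UPM, with the E11.5 UMIs in 7 cells.

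Of 12 glycolysis genes that passed, 5 were at least 2-fold lower and none higher, with a median of -0.73 (-1.05 in all progenitors). The glucose transporter Slc2a1 was at 438 UPM (422 to 454) and 53.5 UPM (33.1 to 81.8). Ldha was at 2307 and 1060 UPM and Gapdh at 2962 and 2862. All other cells had log2 ratios of -2.32 for Slc2a1 and -1.66 for Ldha. Of 13 mitochondrially encoded genes 4 were at least 2-fold higher and 1 lower, with a median of 0.82. They summed to 18478 and 38811 UPM in the progenitors, and to 23345 and 39210 UPM in all other cells. mt-Cytb was at 1822 and 5132 UPM and mt-Nd6, on the other strand, at 57.2 and 10.2 UPM.

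The 12 genes lowest at E11.5 in all progenitors, by the naming rule, were Prtg, Nr6a1, Hoxb1, Sall4, Trim71, Lin28a, Xaf1, Slc2a3, Crabp1, Dqx1, Hes3 and Haglr. All 12 stayed at least 2-fold lower in crest-free cells, and 7 were among the 12 lowest there. Prtg (chr9:72806874-72917291), which encodes protogenin, a receptor-like protein of the early neural tube and mesoderm, was at 449 UPM (434 to 465) at E9.5 and 2.56 UPM (0.528 to 7.48) at E11.5. Its log2 ratio was -7.46 in all progenitors, -7.48 (-12.78 to -5.00) in crest-free cells, -5.04 in dermomyotome progenitors and -5.56 in all other cells. Hes3, a relative of Hes5 that keeps early neuroepithelium, had 359 UMIs at E9.5 but 0 at E11.5, at least 18.6-fold lower. In all other cells Hes3 was at 4.47 and 0.0156 UPM.

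The 12 highest were Acta1, Myl1, Actc1, Tnnc1, Myl4, Rgcc, Tnnc2, Hbb-bs, Bcl11a, Gm3764, Myh3 and Tnni1. The 8 sarcomere genes among them, parts of the contractile apparatus of muscle, had 2188 UMIs at E11.5, of which 99.5% came from 2 cells. Hbb-bs, an adult globin, had 428 UMIs from 1 cell. Of the 3 blood markers Hba-x, Hbb-y and Hbb-bh1, 99.7% of 17853 UMIs at E11.5 lay in a crest-marked cell. Rgcc was at 975 UPM in crest-marked cells of E11.5. The sarcomere and globin genes thus described few cells, whereas Bcl11a was found in 50, Gm3764 in 37 and Rgcc in 31 of the 72 cells. Of the 12, 7 stayed at least 2-fold higher without crest-marked and other-lineage cells.

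In crest-free progenitors the 12 highest were AI854517, Gm3764, Wnt7b, Bcl11a, Gm17750, C130071C03Rik, Hopx, Nfia, RP23-207N5.2, Gsx1, Id4 and Pcsk1n. AI854517, Gm3764, Gm17750, C130071C03Rik and RP23-207N5.2 carry symbols of clones, transcripts or gene models, and what these loci encode was not examined. AI854517 had 1 UMI at E9.5 and 89 UMIs in 34 cells at E11.5, a log2 ratio of 10.63 (8.11 to 15.95). Gm3764 had 2 UMIs and then 98 in 32 cells, and C130071C03Rik 6 and then 86 in 32 cells. In all other cells of E11.5 these were at 4.13, 5.15 and 4.11 UPM, against 227, 250 and 219 UPM in the progenitors. Bcl11a, a zinc finger repressor of neurons and blood cells, was at 0.286 and 120 UPM, and at 0.644 and 92.9 UPM in all other cells.

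The 12 lowest in crest-free cells were Prtg, Crabp1, Trim71, Cdca7l, Hoxb1, Lin28b, Tagln2, Nr6a1, Slc16a3, Msx1, Lin28a and Sall4. Cdca7l, a Myc partner, was at 42.0 UPM and had 1 UMI at E11.5. Slc16a3, the lactate exporter, was at 73.0 UPM with 3 UMIs at E11.5, and all other cells had a log2 ratio of -2.22. Tagln2, an actin binding protein, was at 225 and 17.8 UPM, whereas endothelial cells carried 586 and 875 UPM.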

How the data were processed

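Raw UMI counts per gene and barcode were deposited by the authors without normalization; the submitters' processing notes name Cell Ranger 3.0.1 and the build mm10. Cells with at least 200 and fewer than 6500 genes and under 15% mitochondrial UMIs were kept. Members, gene lists and classes were chosen with earlier results of these data known, and the thresholds for crest-marked (2 UMIs) and other-lineage cells (10 UMIs) after their values were seen.

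UMIs were summed per class and scaled to 1000000. Intervals are exact Poisson, exact ratio-of-Poisson or Clopper-Pearson at 95%, and a count of 0 was set to 3 counts over the class for bounds. Genes compared had at least 100 UMIs in all progenitors, or a mean of 20 UPM in crest-free progenitors. A gene was counted as higher or lower from 2-fold. Named genes were the 12 with the highest and the 12 with the lowest log2 ratio in all progenitors, among genes of at least 100 UMIs whose level in the higher stage reached that of other cells, the 12 leading genes, and members of the lists. For crest-free progenitors, a class added after the data were seen, the same ranking was made among genes with a mean of 20 UPM.

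Scrublet (scanpy 1.11.5, expected doublet rate 8%) called 18 progenitors at E9.5 and 6 at E11.5, which stayed in and were left out in an alternative. Cells were thinned to 5000 UMIs for shares. Alternatives changed the rule, depth, filters and weighting. Python 3.11.15, numpy 2.4.6, scipy 1.17.1, pandas 2.3.3 and matplotlib 3.10.9 were used, and the computations were tested on simulated data. Gene positions are from GENCODE M21 and promoters from RefSeq on GRCm38.p6. Values of some genes are not reported here.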

Additional observations from a re-analysis of the deposited data

Results flagged for a closer look

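Of the listed genes, 150 had a mean of at least 20 UPM in both crest-free and dermomyotome progenitors. Of these 150, 4 were at least 2-fold apart between the stages in opposite directions. Hoxb6 and Hopx also went opposite ways but did not pass this filter in both classes, and are not in the count. The matching share over all genes was not counted, so the 4 genes are only described. With 1 library per stage the difference between the classes was not tested. Hoxb3 had a log2 ratio (E11.5 over E9.5) of 1.19 in crest-free progenitors and -1.51 in dermomyotome progenitors, and Hoxb8 of 1.43 and -1.48. Sfrp1, a secreted Wnt antagonist, was at -1.55 and 1.23. The globin Hbb-y was at 2.85 and -2.48, where all other cells had 1.61. Cells with many blood UMIs had been left out of the crest-free class but not of the dermomyotome class, and 1 member at E9.5 held 3213 of the 3358 blood marker UMIs of the progenitors, so the Hbb-y values of these classes are not filtered alike.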

How the results depend on the processing

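No paired analysis was possible because each stage has 1 library, and for the same reason no replicate could be left out. The summary values were numbers of progenitors, genes past 2-fold and gene lists with a median of at least 1 either way. Of these, 40 stayed within 1.5 times under the alternatives and 26 did not. The other values were gene ratios, judged by their counting interval where they had one, and list medians. Among them 2213 stayed, 777 moved and 19 changed sign. A change of sign was counted for values of at least 1 either way on the log2 scale. Smaller values that changed sign without crest-marked and other-lineage cells and with a minimum mean of 20 UPM include the medians of neural progenitor (-0.02 to 0.83), Wnt (-0.35 to 0.43), hedgehog (-0.14 to 0.14), retinoic acid (-0.20 to 0.31) and Bmp genes (-0.01 to 0.14), and Rfx4 (-0.65 to 0.77) and Hoxb9 (-0.11 to 0.82). With the same cells left out but the minimum of 100 UMIs kept, these medians were at 0.83, -0.71, 0.02, -0.48 and -0.14.

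Requiring Pax7 left 76 of 488 progenitors at E9.5 and 18 of 72 at E11.5, with 77 genes higher in place of 407, 136 lower in place of 385, and 3 gene lists with a median of at least 1 either way in place of 10, counted over lists with at least 3 genes that passed. Requiring 2 Pax UMIs left 319 cells at E9.5. Requiring 6 neural UMIs left 6 such lists. Leaving out cells with a UMI of 6 somite genes left 40 cells at E11.5 and 5 lists. Applying the rule after thinning gave 182 cells at E9.5, 179 genes higher, 189 lower and 6 lists, and thinning the chosen cells gave 135 higher and 248 lower. A minimum of 50 UMIs gave 738 higher. A minimum of 200 gave 196 higher, 254 lower and 5 lists. A minimum mean of 20 UPM gave 216 lower. Among the alternatives chosen after seeing the data, leaving out crest-marked cells left 43 cells at E11.5 and 6 lists. Removing other-lineage cells as well left 39 cells, 423 genes higher, 582 lower and 6 lists, also 6 with the minimum mean of 20 UPM. The share of higher among called genes was 51.4%, and it was 36.2% with Pax7, 35.2% after thinning and 64.5% with the minimum mean.

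Signs turned for the median log2 ratio E11.5 over E9.5, blood cell genes being at -3.39 with 6 neural UMIs, -3.50 with 2 Pax UMIs, -3.36 without somite-gene cells, -3.29 with the rule after thinning and -2.63 without crest-marked cells, against 5.09 for all progenitors. The median of dorsal patterning genes turned to 0.79 without crest-marked and other-lineage cells and with the mean of 20 UPM. Requiring Pax7 turned Jag1 to -0.48, Pou3f2 to 0.22 and Smad7 to -0.66. Without crest-marked cells Jag1 was at -1.12, Pou3f2 at 0.10, Fgf15 at 0.22 and Neurog1 at -1.90. Without other-lineage cells as well Jag1, Pou3f2 and Fgf15 were at -1.22, 0.18 and 0.52, and Nr2f2 at -0.26. Neurog1 then had no UMI in the 39 cells left at E11.5, and its value of -0.02 is only the upper bound given by 3 counts. Fgf15 was at 0.29 with the rule after thinning. Apart from the smaller numbers of cells and genes that the alternatives themselves leave, the cause was not tested.

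At E11.5 the 39 crest-free cells carry 392416 UMIs, and a gene with no UMI there is taken as up to 3 counts over the class.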
